A study of Mus musculus with 8 samples.

Results

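The genes described here encode the machinery that stores neurotransmitter in synaptic vesicles and releases it. They are 42 genes chosen by symbol. Their measured values were no part of the rule, but earlier results of these data were known when they were chosen. They comprise 13 synaptotagmins, Doc2a, Doc2b and Rph3a, the 3 synapsins and 5 vesicle membrane proteins. The others are 4 SNARE proteins, 3 complexins, 8 priming and active zone proteins and 3 Rab3 GTPases. All 42 were among the 48709 gene identifiers of the count tables, and all 42 were among the 16525 genes with enough counts to be tested.

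Calcium entering a nerve terminal binds to synaptotagmins, which act on SNARE proteins of the vesicle and the plasma membrane and let the membranes fuse. Complexins bind the assembled SNARE complex, Munc13 and RIM proteins ready docked vesicles at the active zone, Rab3 GTPases tether vesicles there, and synapsins hold a reserve of vesicles in clusters. In newborn cortex most synapses are still being built, so these genes are being switched on rather than running at adult levels.

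RNA was measured in P3 cortex (postnatal day 3; the methods name the tissue dTel, the dorsal telencephalon) of 4 dcKO_hGFAP-Cre and 4 control C57BL/6J mice. The mutants carried BAF155 fl/fl, BAF170 fl/fl and hGFAP-Cre pos/+, which removes 2 scaffolding subunits of the BAF chromatin remodelling complex from cells that express Cre under a human GFAP promoter, mainly dTel progenitors and their progeny. By the methods the controls were BAF155 fl/+, BAF170 fl/+ and also carried hGFAP-Cre pos/+, whereas the labels call them wild type; no treatment is named, and the mutants are reported to die soon after birth. The study asked how the loss of both subunits alters the transcriptome of the early postnatal cortex.

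Total counts ranged from 21126713 to 32110285 per library, and the genes of the 2 deleted subunits were lower in every mutant than in every control, with log2 fold changes of -0.97 for Smarcc1 (BAF155) and -0.77 for Smarcc2 (BAF170). Lane 5 held replicates 1 and 2 of each group, lane 6 replicate 3 and lane 7 replicate 4. The labelled tissue was checked against lists of marker genes, whose part in the results below was not tested. The 12 pan-neuronal markers summed to 13100 to 14200 CPM in control and 10400 to 11300 CPM in mutant libraries, with 8 lower and 1 higher, and the 12 markers of cortical excitatory neurons to 2200 to 2400 and 1300 to 1500 CPM, with 8 lower and 1 higher. Markers of GABAergic interneurons (10 of 12 higher; 732 to 754 against 1120 to 1250 CPM) and of striatal projection neurons (9 of 12 higher; 139 to 208 against 407 to 807 CPM) went the other way. None of the markers of these 4 lists was at 0 in any library. Mitochondrial genes took 2.06% to 3.23% of the counts of control and 3.57% to 5.47% of those of mutant libraries. Lists of other cell types and regions, among them thalamus and midbrain and choroid plexus, are given at the end. In these bulk samples, fewer neurons, another mix of cell types or regions, and less RNA of a gene per neuron cannot be told apart.

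More of the release genes fell than rose in mutant cortex. Of the 42 genes, 21 fell and 6 rose at a threshold of 0.05 on the adjusted p, and 15 did not pass. Where no other tool is named, adjusted p-values are from the quasi-likelihood test of edgeR, corrected by Benjamini-Hochberg over all genes tested. These 27 are 64.3% of the 42, where 37.5% of all genes tested passed, 18.9% lower and 18.6% higher. Scaled by library totals in place of TMM, which moved the median log2 change of all genes from 0.02 to 0.15, 14 of the 42 fell and 7 rose. The median log2 fold change (mutant minus control) was -0.24 over the 42 genes and 0.02 over all 16525, and the median absolute value 0.37 and 0.29. Of the 42 genes 24 had a control mean of at least 100 CPM, and a gene with more counts passes more easily. Among the 12 pan-neuronal markers 75.0% passed, with a median log2 fold change of -0.43, so the fall was not particular to release genes. With a log2 fold change of 0.5 or more in size required as well, 8 of the 42 fell and 4 rose, and 21.6% of all genes met this in either direction. SE stands for the standard error of a log2 fold change. In 22 of the 42 the mutant and control libraries did not overlap, as in 34.4% of all genes. Together the 42 genes held 0.848% to 0.928% of the normalized counts of the control libraries and 0.670% to 0.762% of the mutant ones. This sum, in which abundant genes weigh most, was lower in every mutant than in every control. Not every role followed it. Doc2a, Doc2b and Rph3a together were at 317 to 365 CPM in control and 395 to 485 CPM in mutant libraries. The sums of the synapsins, the priming and active zone genes and the Rab3 GTPases overlapped between the groups.

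Expression is given in CPM, normalized so that libraries of unequal depth can be set side by side, in the order of replicates 1 to 4. Gene positions are those of GENCODE on mm10. For every gene whose groups did not overlap, the exact two-sided permutation test on CPM gave p = 0.0286, the smallest that 4 libraries against 4 allow.

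**Figure D1:**
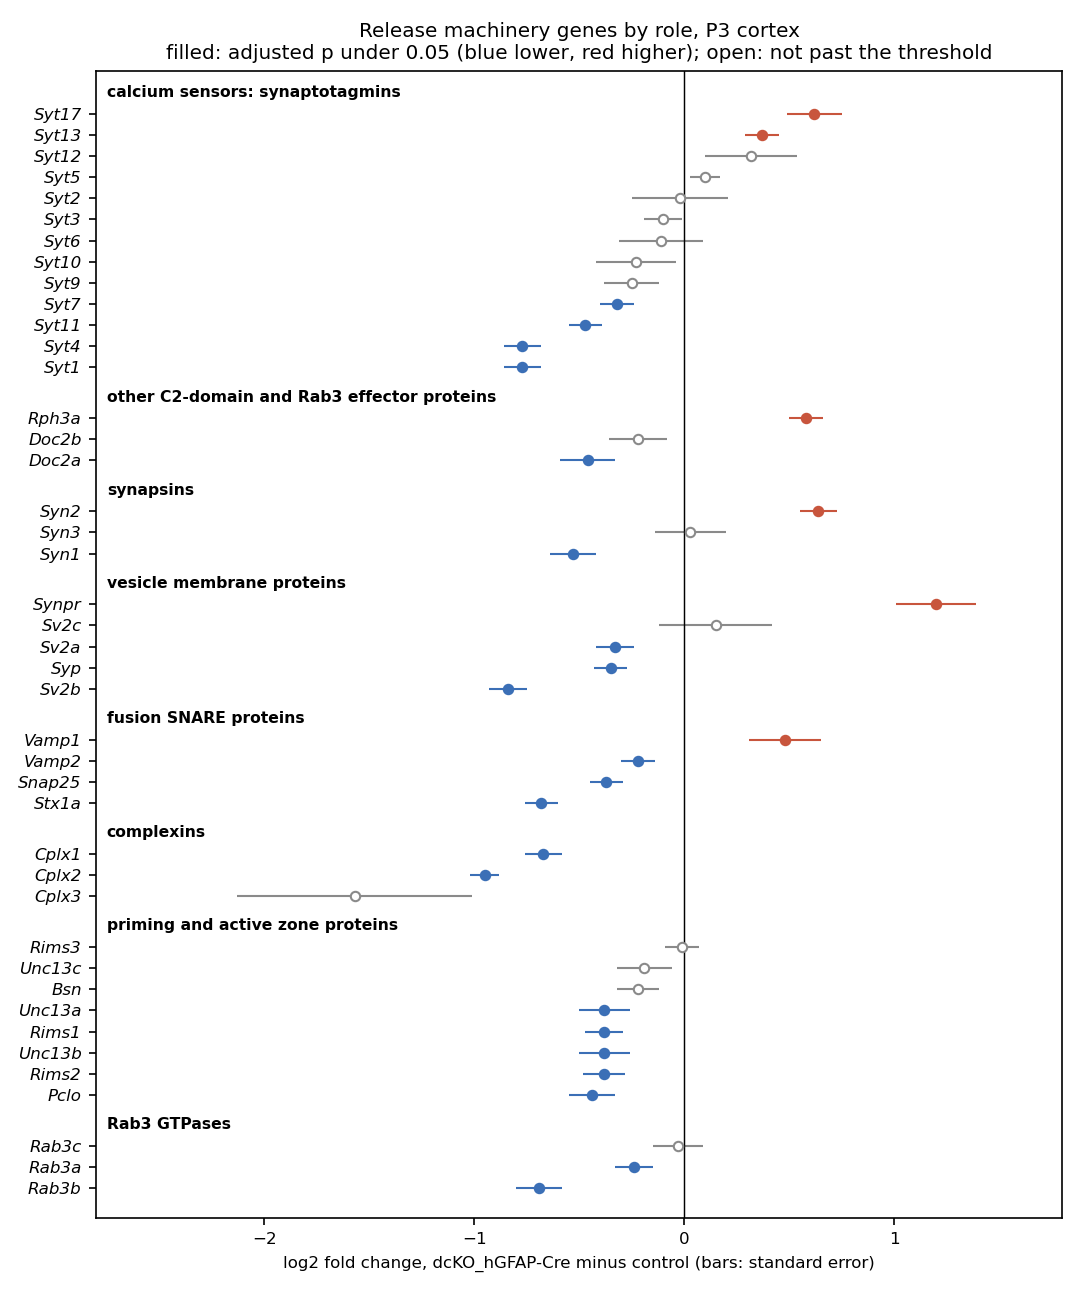
Log2 fold changes of the 42 release machinery genes in dcKO_hGFAP-Cre relative to control cortex, grouped by role (x axis, log2 scale; bars, standard error; filled points, adjusted p under 0.05; open points, not past the threshold). The 5 filled points of the priming and active zone group and the 2 each of the complexins and the Rab3 GTPases lie below 0, while every other group has filled points on both sides.

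Among the calcium sensors, the 3 synaptotagmins with the highest CPM, Syt1, Syt11 and Syt4, fell, and 2 of lower CPM rose. Syt1 (ENSMUSG00000035864, chromosome 10, 108497650 to 109010982), the sensor for fast synchronous release, stood at 625, 747, 687 and 638 CPM in control and 390, 363, 370 and 460 CPM in mutant libraries. Every mutant was below every control, and the log2 fold change was -0.77 (SE 0.09; adjusted p = 5.62e-05). Syt4, a synaptotagmin of dense-core vesicles that binds calcium poorly, stood at 401, 475, 445 and 470 CPM against 223, 265, 282 and 282 CPM. Its groups were as far apart as those of Syt1, with a log2 fold change of -0.77 (SE 0.09). Syt11, a close relative of Syt4 that does not bind calcium (454 ± 31.6 against 327 ± 21.9 CPM, SD, n = 4 each), and Syt7, the slow sensor of asynchronous release (275 ± 17.7 against 220 ± 19.1 CPM), also fell, by 0.47 and 0.32 on the log2 scale.

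Syt17 (ENSMUSG00000058420, chromosome 7, 118380717 to 118448222), a divergent synaptotagmin without a membrane-spanning segment, stood at 12.1, 11.2, 10.8 and 10.2 CPM in control and 16.1, 19.6, 13.3 and 18.8 CPM in mutant libraries. All mutants were above all controls, with a log2 fold change of 0.62 (SE 0.13; adjusted p = 0.00349). Syt13, which does not bind calcium, rose from 69.8 ± 2.47 to 90.2 ± 7.03 CPM (SD, n = 4 each; log2 fold change 0.37, adjusted p = 0.00303). The 7 other synaptotagmins did not pass, with log2 fold changes from -0.25 for Syt9 and -0.23 for Syt10 through -0.11 for Syt6, -0.10 for Syt3, -0.02 for Syt2 and 0.10 for Syt5 to 0.32 for Syt12. Syt2 and Syt9, the other fast sensors, were far below Syt1: per kilobase of their longest transcript, the mean control levels were 140 CPM for Syt1, 6.19 CPM for Syt9 and 0.316 CPM for Syt2.

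The make-up of the family followed. As a share of the summed CPM per kilobase of the 13 synaptotagmins, Syt1 went from 25.5% ± 1.47 to 19.5% ± 1.57 and Syt4 from 21% ± 1.15 to 16% ± 1.35 (SD, n = 4 each). Syt5, whose own level did not pass the test, went from 18.1% ± 1.31 to 25.4% ± 1.78 of the family and was the leading member in the mutant mean, and Syt13 went from 3.39% ± 0.0871 to 5.69% ± 0.29. For these 4 genes the shares of the groups did not overlap. They are parts of 1 whole, so a share can go up because another member fell.

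Doc2a and Doc2b are soluble calcium sensors tied to spontaneous and asynchronous release, and Rph3a (rabphilin) is an effector of Rab3. Rph3a (ENSMUSG00000029608, chromosome 5, 120940499 to 121010092) was among the genes that rose, at 210, 234, 220 and 236 CPM in control and 324, 312, 331 and 375 CPM in mutant libraries. The groups did not overlap (log2 fold change 0.58 ± 0.08 SE, adjusted p = 1.70e-04). Doc2a fell from 34.9 ± 4.31 to 25.4 ± 4.26 CPM (SD, n = 4 each; log2 fold change -0.46, adjusted p = 0.015), but 39.4% of its annotated exon bases are shared with Ino80e on the opposite strand. The library kit does not mark strand, so reads of the 2 genes cannot be told apart there. Doc2b did not pass (log2 fold change -0.22).

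**Figure D2:**
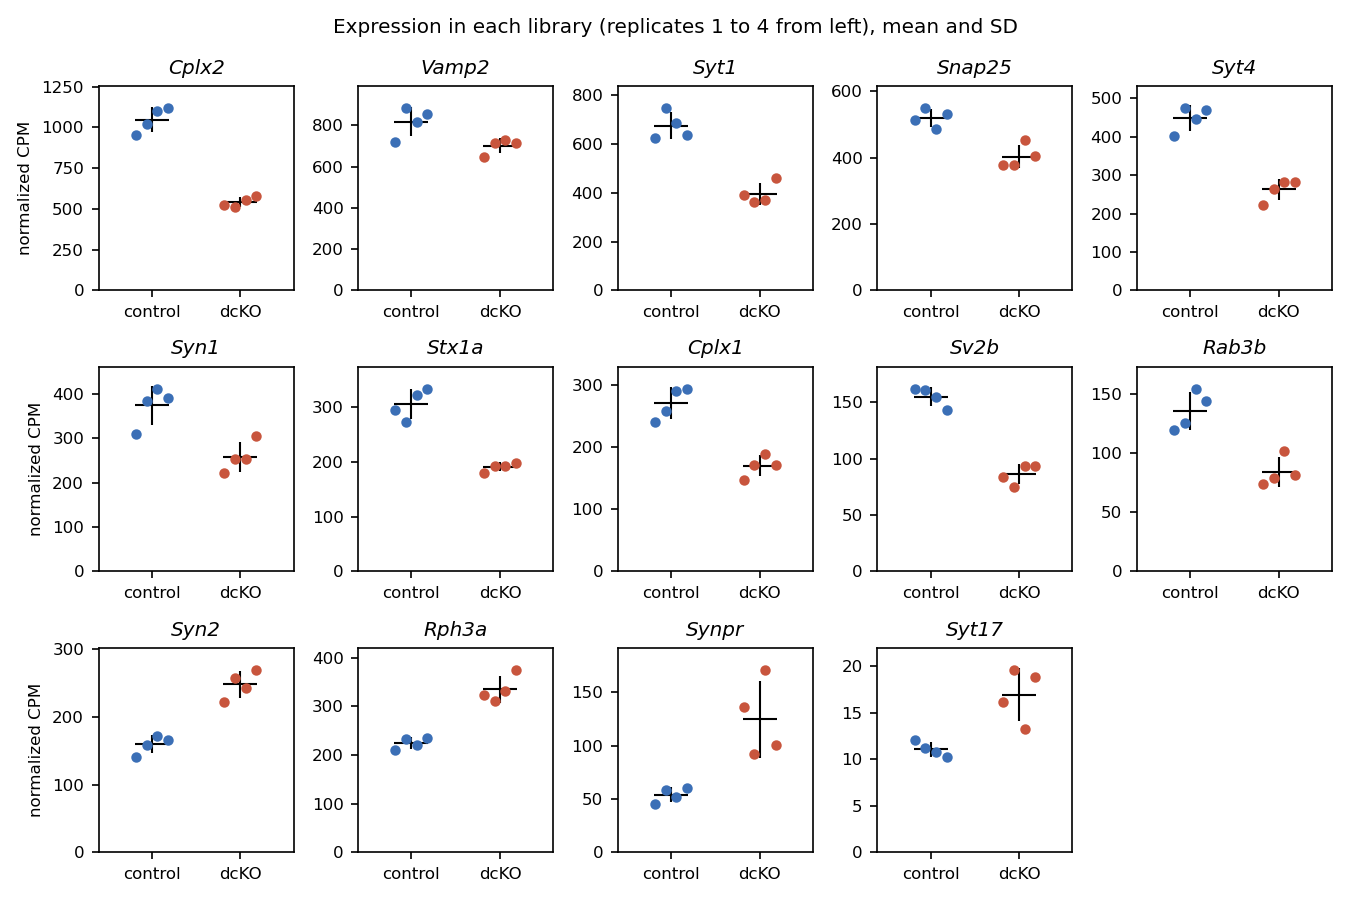
Normalized CPM (y axes, each from 0) in the 4 control (blue) and 4 dcKO_hGFAP-Cre (red) libraries for the 4 most abundant release genes and the 12 that passed with a log2 fold change of 0.5 or more in size (2 genes are in both sets); bars, mean and SD. The groups are apart in all panels but that of Vamp2, and Syn2, Rph3a, Synpr and Syt17 are the 4 in which the mutant is higher.

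The synapsins, phosphoproteins that tether vesicles to each other and to actin, split by member. Syn1 (ENSMUSG00000037217, chromosome X, 20860511 to 20921004) stood at 310, 383, 411 and 391 CPM in control and 222, 253, 254 and 304 CPM in mutant libraries. The highest mutant lay just under the lowest control, and the log2 fold change was -0.53 (SE 0.11; adjusted p = 0.00235). Syn2 (ENSMUSG00000009394, chromosome 6, 115134902 to 115282006) stood at 141, 158, 172 and 166 CPM against 222, 257, 243 and 269 CPM. All mutants were higher, with a log2 fold change of 0.64 (SE 0.09; adjusted p = 1.61e-04). Syn3, expressed early in neuronal development, was at 37.5 ± 4.21 and 38.3 ± 10.6 CPM (SD, n = 4 each) and did not pass. It shares 14.1% of its exon bases with Timp3 on the opposite strand. Syp and Syt4 share 16.8% and 14.5% of theirs with antisense genes that had 183 and 335 counts over all 8 libraries.

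In summed CPM per kilobase, Syn1 made up 69.9% ± 1.02 of the synapsin transcripts in control and 52.2% ± 1.44 in mutant cortex, and Syn2 25.3% ± 0.726 and 42.5% ± 1.72 (SD, n = 4 each). The lowest Syn1 share of a control library was 68.4% and the highest of a mutant library 53.7%. The summed CPM of the 3 genes covered nearly the same range in the groups, from 486 to 626 CPM in control and from 488 to 624 CPM in mutant libraries. The synapsin pool was thus of like size by summed CPM and of another composition by CPM per kilobase.

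The vesicle membrane proteins showed the same kind of split. Synpr (synaptoporin; ENSMUSG00000056296, chromosome 14, 13284780 to 13616340), a relative of synaptophysin, had the greatest rise of the 42 genes. It stood at 45.8, 58.7, 51.9 and 60.5 CPM in control and 136, 91.9, 171 and 101 CPM in mutant libraries. All mutants were above all controls but differed among themselves, and the log2 fold change was 1.20 (SE 0.19; adjusted p = 9.37e-04). Syp (synaptophysin), among the most abundant proteins of the vesicle, fell from 343 ± 29 to 269 ± 13.9 CPM (SD, n = 4 each; log2 fold change -0.35, adjusted p = 0.0045). Of the CPM per kilobase of this pair, Synpr held 9.50% ± 1.01 in control and 23.3% ± 4.87 in mutant cortex, with 10.7% the highest control and 19.0% the lowest mutant value.

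The SV2 proteins are vesicle glycoproteins that act on the readiness of vesicles to fuse. Sv2b (ENSMUSG00000053025, chromosome 7, 75114894 to 75309262) stood at 162, 161, 155 and 143 CPM in control and 83.8, 75.1, 93.2 and 93.6 CPM in mutant libraries. The groups were far apart, with a log2 fold change of -0.84 (SE 0.09; adjusted p = 2.15e-05). Sv2a, the binding site of the drug levetiracetam, fell from 365 ± 23.7 to 290 ± 32.3 CPM (SD, n = 4 each; log2 fold change -0.33, adjusted p = 0.0106), and Sv2c did not pass (log2 fold change 0.15). The share of Sv2b in this family went from 24.4% ± 1.76 to 18.3% ± 1.43.

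Because synapsins and the synaptophysin pair have members that moved in opposite directions, the 250 bases before the RefSeq start of the 4 genes are shown. Windows of this kind were at hand for 30 of the 42 genes, 42 windows in all since some genes have several starts. They are given 5′ to 3′ on the strand of the gene, build GRCm38.p6, at chrX:20920919-20921168 (minus strand) for Syn1, chr6:115134652-115134901 (plus) for Syn2, chrX:7638330-7638579 (plus) for Syp and chr14:13284530-13284779 (plus) for Synpr. Capitals mark matches, on either strand, to 5 short motifs.
Syn1: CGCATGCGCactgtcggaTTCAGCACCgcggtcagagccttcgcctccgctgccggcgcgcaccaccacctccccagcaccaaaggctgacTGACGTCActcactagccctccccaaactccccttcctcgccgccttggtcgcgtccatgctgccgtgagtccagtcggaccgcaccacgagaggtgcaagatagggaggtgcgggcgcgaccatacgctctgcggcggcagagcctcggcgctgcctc
Syn2: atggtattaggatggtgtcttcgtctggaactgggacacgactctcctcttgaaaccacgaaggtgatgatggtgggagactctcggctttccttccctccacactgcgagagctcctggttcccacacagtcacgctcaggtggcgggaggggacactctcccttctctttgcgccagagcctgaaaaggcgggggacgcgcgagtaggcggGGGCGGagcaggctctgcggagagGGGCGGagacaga
Syp: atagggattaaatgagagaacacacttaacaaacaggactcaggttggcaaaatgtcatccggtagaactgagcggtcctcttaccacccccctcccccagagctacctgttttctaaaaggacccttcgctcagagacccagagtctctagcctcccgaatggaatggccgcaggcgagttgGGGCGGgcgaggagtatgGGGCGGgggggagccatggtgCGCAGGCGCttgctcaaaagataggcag
Synpr: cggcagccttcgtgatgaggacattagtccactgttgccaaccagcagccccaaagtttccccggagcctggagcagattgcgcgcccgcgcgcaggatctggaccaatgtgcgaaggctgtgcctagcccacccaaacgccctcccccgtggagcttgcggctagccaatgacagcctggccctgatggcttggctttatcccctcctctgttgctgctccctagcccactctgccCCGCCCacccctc

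The motifs searched were the cAMP response element TGACGTCA, the NRF1 motif GCGCNTGCG, the EGR motif GCGTGGGCG, the GC box GGGCGG, and TTCAGCACC, the left part of RE1, the element bound by the neuronal repressor REST. The matches in these windows do not overlap each other. Distances are to the RefSeq start. The GENCODE gene begins within the window for Syp (7638471) and for Syn1 (20921004, minus strand). By GENCODE the Syp matches thus lie inside the gene, and those of Syn1 before it. The cAMP response element of Syn1 begins 159 bases before the start and its RE1 part 232 bases before it, and these motifs are found in 1.55% and 0.301% of all 32851 windows. The NRF1 motif (5.19% of all windows) begins 28 bases before the start of Syp and 250 bases before that of Syn1, and Bsn, Pclo, Sv2a and Syt2 were the other 4 release genes with one. The GC box, at 2 places in Syn2 and in Syp and 1 in Synpr, was in 64.3% of the windows of the release genes and 32.7% of all windows. The EGR motif was in a window of Unc13a alone (0.536% of all windows). The whole RE1 element was searched as a single strict pattern. That pattern was in none of the 42 windows of the 30 genes (0.0548% of all windows). The bases of Syn1 from TTCAGCACC onward differ from it by 1 letter, so the search cannot show that the element is absent. Syn1, which fell, thus shares none of the 5 motifs with Syn2 and Synpr, which rose, whereas Syp, which fell, shares the GC box with both. This describes the letters of these windows only.

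**Figure D3:**
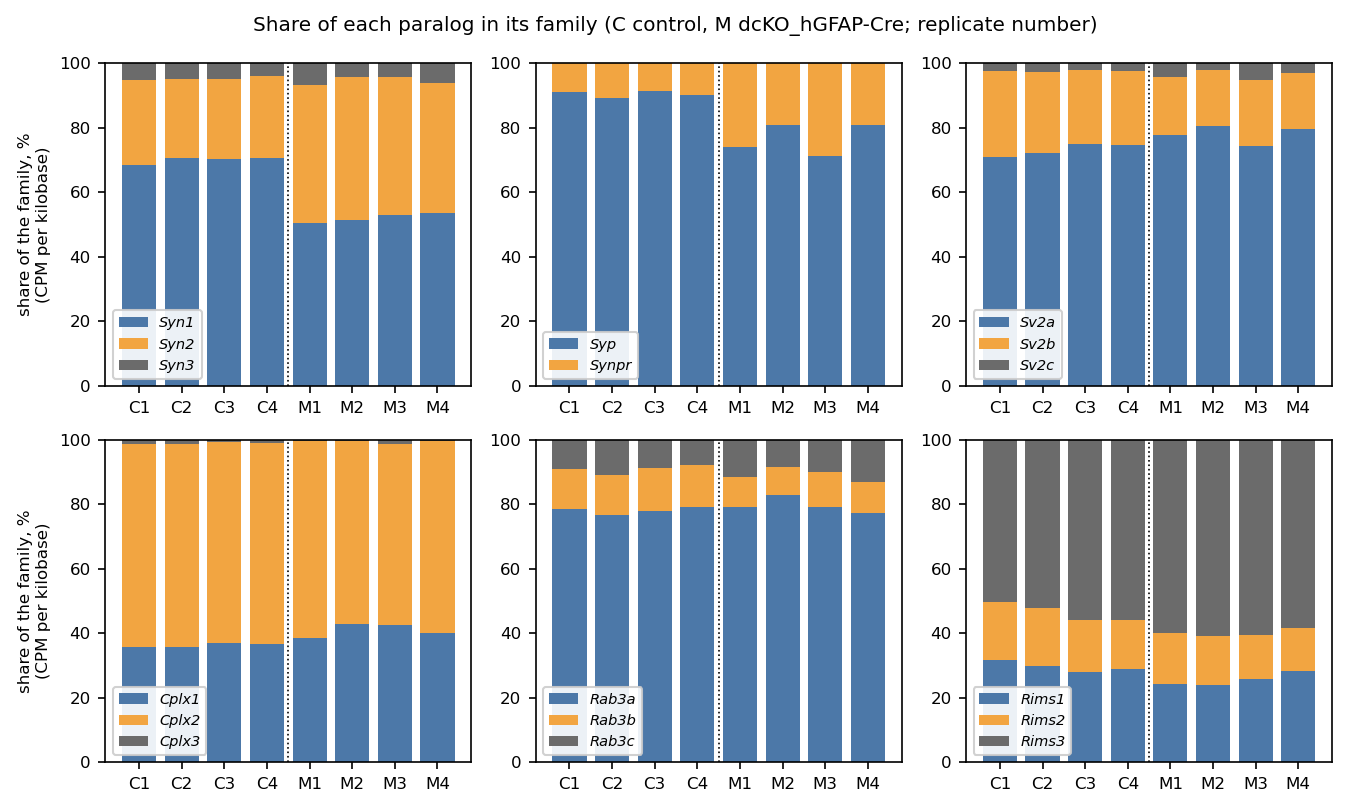
Share of each paralog in the summed CPM per kilobase of its family (y axes, 0 to 100%) in control (C1 to C4) and dcKO_hGFAP-Cre (M1 to M4) libraries. The step between the groups is plain for Syn2 (25.3% to 42.5% in the means) and Synpr (9.50% to 23.3%) and small for the complexins and RIMs.

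The SNARE proteins form the core of the fusion machine, and each of the 4 passed the test. Stx1a (syntaxin 1A; ENSMUSG00000007207, chromosome 5, 135023482 to 135051100), of the plasma membrane, stood at 294, 272, 321 and 333 CPM in control and 179, 193, 193 and 198 CPM in mutant libraries. The groups were well apart (log2 fold change -0.68 ± 0.08 SE, adjusted p = 5.76e-05). Snap25, its partner there, stood at 513, 550, 486 and 531 CPM against 378, 378, 452 and 405 CPM. All mutants were below all controls, by a smaller step (log2 fold change -0.37 ± 0.08 SE, adjusted p = 0.003).

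The vesicle SNAREs moved apart, at the edge of the test. Vamp2, the main one of forebrain synapses, stood at 720, 884, 814 and 854 CPM in control and 648, 715, 729 and 712 CPM in mutant libraries. Control replicate 1 lay within the mutant range, and the log2 fold change was -0.22 (SE 0.08; adjusted p = 0.0373; exact permutation p = 0.0571). Vamp1, its relative of spinal and brainstem synapses, was higher in mutants, at 13.0 ± 2.80 against 18.2 ± 3.31 CPM (SD, n = 4 each; log2 fold change 0.48, adjusted p = 0.0361). For this gene too the groups overlapped, and Vamp2 kept 99.4% of the CPM per kilobase of the pair in control and 99.0% in mutant cortex. Vamp2 no longer passed without control replicate 2, 3 or 4 or mutant replicate 1 or 2 (adjusted p up to 0.0947), nor Vamp1 without these or mutant replicate 4 (up to 0.136).

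The complexins had the lowest median log2 fold change of the 8 roles, -0.95. Cplx2 (ENSMUSG00000025867, chromosome 13, 54371349 to 54383917), the complexin of forebrain excitatory neurons and the most abundant of the 42 genes by CPM, stood at 955, 1020, 1100 and 1120 CPM in control and 527, 512, 555 and 578 CPM in mutant libraries. It was 1.93-fold lower, with a wide gap between the groups (log2 fold change -0.95 ± 0.07 SE, adjusted p = 2.99e-06). Cplx1 (ENSMUSG00000033615, chromosome 5, 108518554 to 108550024) stood at 241, 258, 290 and 294 CPM against 148, 171, 189 and 172 CPM. The groups did not overlap (log2 fold change -0.67 ± 0.09 SE, adjusted p = 1.90e-04). The summed CPM of the 3 complexins was 1210 to 1430 in control and 677 to 753 in mutant libraries.

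Cplx3, a lipid-anchored complexin and a marker of subplate neurons in cortex, depended on 1 library. Its values, given because of this and chosen after they were seen, were 10.9, 11.9, 7.84 and 12.6 CPM in control and 2.05, 1.61, 8.77 and 1.96 CPM in mutant libraries. Mutant replicate 3 was at the control level and the other mutants were below it. Its log2 fold change was -1.57 ± 0.56 SE (adjusted p = 0.06), and -2.52 without mutant replicate 3 (adjusted p = 2.35e-06). DESeq2 and limma-voom called the gene with all 8 libraries (adjusted p = 0.0253 and 0.01). The 6 markers of subplate and layer 6b neurons summed to 140 to 158 CPM in control and 113 to 131 CPM in mutant libraries (121 CPM in replicate 3), with Nxph4 higher and Nr4a2 lower. Of these markers, Ccn2 was at 17.8 to 21.4 CPM in control and 12.8, 8.77, 19.3 and 13.3 CPM in mutant replicates 1 to 4. Trh was at 3.75 to 5.08 CPM in control and 3.55, 3.26, 6.72 and 4.11 CPM in the mutants. Mutant replicate 3 was instead the lowest mutant for Nr4a2 (56.9, 57.6, 49.3 and 69.0 CPM) and Moxd1 (4.53, 4.11, 3.21 and 3.98 CPM). It was the highest only by a small margin for Nxph4 (28.3, 35.1, 35.5 and 33.7 CPM) and Inpp4b (6.75, 6.74, 7.03 and 6.52 CPM). The astrocyte genes Aqp4 (53 CPM, the other mutants at 9.49 to 9.92 CPM) and Gfap (273 CPM, the others at 24.2 to 32.2 CPM) also had their highest mutant value in replicate 3, where the controls were at 38.8 to 63.7 CPM for Aqp4 and 79.3 to 89.5 CPM for Gfap. Ccn2, Trh, Aqp4 and Gfap were chosen after their values were seen, and their part in the value of Cplx3 was not tested.

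All 8 priming and active zone genes had negative log2 fold changes, and 5 of them fell. Unc13a and Unc13b encode Munc13 proteins, which open syntaxin for SNARE assembly. Rims1 and Rims2 encode the RIM scaffolds that bind Rab3, Munc13 and calcium channels, and Pclo (piccolo) and Bsn (bassoon) encode giant proteins of the active zone matrix. Pclo fell by 0.44 on the log2 scale (adjusted p = 0.00864), Rims1 by 0.38 (adjusted p = 0.00787), Rims2 by 0.38 (adjusted p = 0.0107), Unc13b by 0.38 (adjusted p = 0.0201) and Unc13a by 0.38 (adjusted p = 0.0244). Unc13a did not pass without control replicate 3 or mutant replicate 1, 2 or 3 (adjusted p up to 0.081), nor Unc13b without mutant replicate 1 or 2 (up to 0.0654). The other 3 did not pass: Bsn at -0.22 (adjusted p = 0.105), Unc13c, the Munc13 best known from cerebellum, at -0.19 and Rims3, a short RIM, at -0.01. Within the RIM family the share of Rims3 went from 53.6% ± 2.78 to 59.9% ± 1.03, with no overlap.

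Mutant replicate 4 stood apart from the other mutants in this group. It was the highest mutant for 7 of the 8 genes, all but Rims2, where this held for 21 of all 42 release genes (50.0%) and for 30.9% of all genes tested. For Unc13a the controls were at 321, 311, 317 and 317 CPM and the mutants at 228, 209, 214 and 320 CPM. Mutant replicate 4 was thus within the control range, and the other mutants were well below it. For Bsn the controls were at 223, 203, 221 and 222 CPM and the mutants at 178, 168, 169 and 231 CPM, so that the highest of the 8 values was a mutant one. The summed CPM of the 8 genes was 1160 to 1230 in control and 941, 913, 904 and 1170 in mutant libraries. These 2 genes were picked for this pattern after their values were seen.

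Long transcripts as a class were higher in that library. Over all genes, the median log2 difference of mutant replicate 4 from the mean of the other mutants was -0.17 for transcripts under 2000 bases and 0.22 for those of 8000 bases and over. It was 0.30 for the 8 priming and active zone genes, whose longest transcripts run from 4800 bases for Rims2 to 20084 bases for Pclo, and 0.10 for the other 34 release genes. Without mutant replicate 4, Bsn passed the test (log2 fold change -0.33, adjusted p = 0.00287) and Unc13a was at -0.53 (adjusted p = 9.85e-05). With GC content and transcript length as an offset, Bsn was at 0.06 and Unc13a at -0.14 (adjusted p = 0.46 and 0.233), and Rims3 at 0.21 passed as higher (adjusted p = 0.0298).

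**Figure D4:**
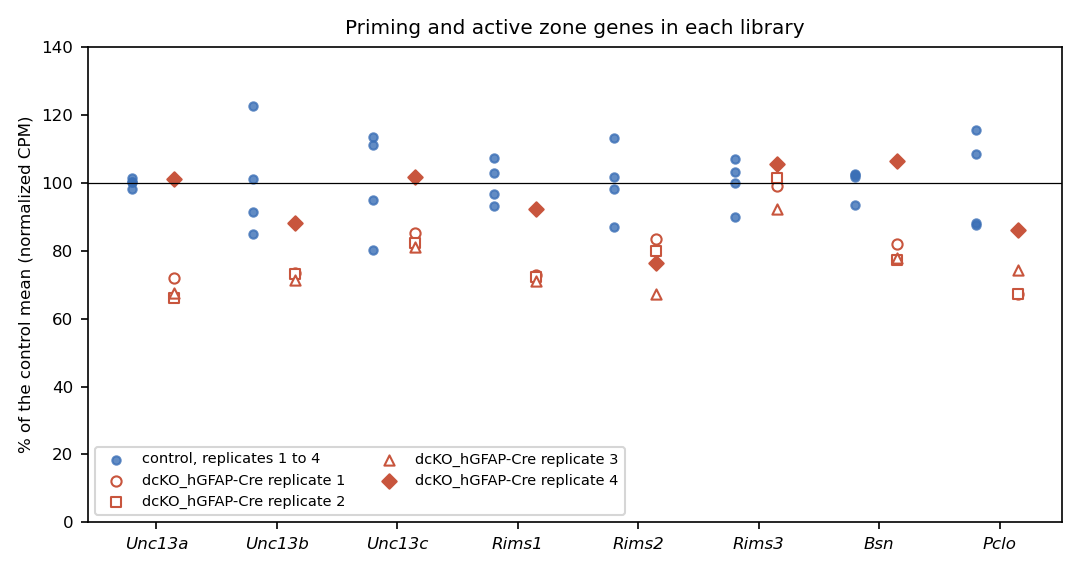
Expression of the 8 priming and active zone genes in each library as a percentage of the control mean (y axis from 0; blue, control replicates; red outlines, mutant replicates 1 to 3; filled red diamonds, mutant replicate 4). The diamonds lie above the other mutants for all genes but Rims2.

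Rab3 GTPases sit on the vesicle and bind RIM and rabphilin. Rab3b (ENSMUSG00000003411, chromosome 4, 108879063 to 108943324) stood at 119, 125, 154 and 144 CPM in control and 74.0, 78.9, 102 and 81.1 CPM in mutant libraries. The groups did not overlap (log2 fold change -0.69 ± 0.11 SE, adjusted p = 5.62e-04). Rab3a, the main form of brain, was at 382 ± 35.5 and 324 ± 26.5 CPM (SD, n = 4 each; log2 fold change -0.24, adjusted p = 0.0453), with overlapping groups, and did not pass without control replicate 3 or 4 or mutant replicate 1 or 4 (adjusted p up to 0.139). Rab3c did not pass (log2 fold change -0.03). Per kilobase Rab3a held 77.9% of the family in control and 79.5% in mutant cortex, and Rab3b 12.9% and 9.62%.

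Per kilobase of longest transcript, the order of the leading genes was partly kept. Vamp2 (371 ± 32.2 against 318 ± 16.4 CPM per kilobase) and Rab3a (245 ± 22.8 against 208 ± 17.0) were the highest in both groups on this scale. Cplx2 followed at 213 ± 15.4 in control, where its SD range overlapped that of Rab3a, and was at 110 ± 5.98 in the mutant, beside Syt5 at 107 ± 3.8. Below them in control, Stx1a (141 ± 12.5), Syt1 (140 ± 11.5), Cplx1 (124 ± 11.6) and Syp (121 ± 10.2) came next, with overlapping SD ranges between neighbours. The order depended on the length used. Divided by all annotated exons, control means were 215 for Vamp2, 213 for Cplx2, 172 for Rab3a, 124 for Cplx1, 115 for Syt4 and 80.9 CPM per kilobase for Syt1, so that Cplx2 was above Rab3a, while in mutant cortex Vamp2 (184) and Rab3a (145) were above Cplx2 (110).

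An order among the mutants was shared by some release genes and the summed striatal markers, and was noticed after the values were seen. Mutant libraries differed in the sum of the 12 striatal projection neuron markers, which was 745, 407, 807 and 516 CPM in replicates 1 to 4, all above the control range of 139 to 208 CPM. Ppp1r1b, the largest single part of each mutant sum, was at 343, 276, 342 and 271 CPM (controls 34.2 to 49.1 CPM). It did not have the order of the sum, and neither did Isl1, Ebf1, Rgs9 and Rasd2. Synpr had the order of the sum, with replicate 3 highest, then 1, 4 and 2. Sv2c, an SV2 of striatum and basal forebrain, had it as well, at 32.6, 13.9, 38.4 and 27.2 CPM, where the controls were at 24.6, 30.3, 23.4 and 23.2 CPM. So did Syt6, at 61.6, 37.3, 69.5 and 57.0 CPM (controls 77.9, 62.1, 46.1 and 57.2 CPM), and Cplx3. These are 4 of the 42 genes (9.52%), and 597 of all 16525 (3.61%) had this order. For Sv2c and Syt6 the groups overlapped and the test was not passed, with mutant SDs of 10.5 and 13.7 CPM against control SDs of 3.33 and 13.2 CPM.

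**Figure D5:**
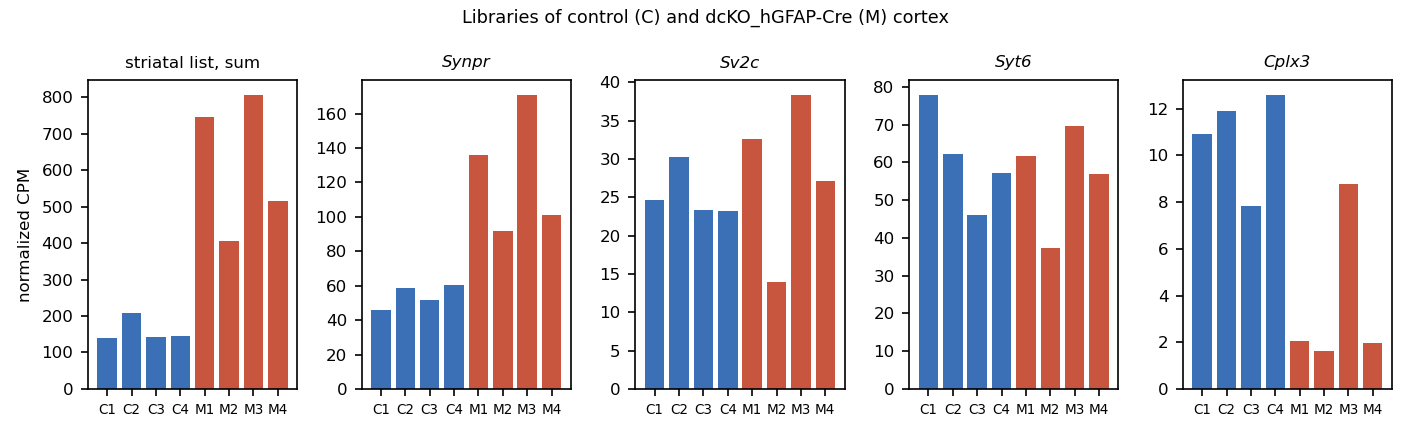
Summed CPM of the 12 striatal projection neuron markers and CPM of Synpr, Sv2c, Syt6 and Cplx3 (y axes from 0) in control (C1 to C4, blue) and dcKO_hGFAP-Cre (M1 to M4, red) libraries. In each panel M3 is the highest mutant and M2 the lowest.

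The wider pathway was read from 4 lists of genes outside the 42. Of 95 such genes tested, 33 fell and 9 rose, with a median log2 fold change of -0.15. These are 44.2% of the 95, against 37.5% of all genes. Among 19 further SNARE and fusion factors, 4 fell and 3 rose, or 36.8%, a share near that of all genes. Stxbp5 (tomosyn), which binds syntaxin and holds back SNARE assembly, fell from 112 ± 6.1 to 85.4 ± 6.42 CPM (SD, n = 4 each; log2 fold change -0.40). Snap23 (log2 fold change 0.71) and Vamp3 (0.55), SNAREs found in most cell types, rose.

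Among 24 further active zone and priming genes 10 fell and 1, Rab3il1, rose (log2 fold change 0.35), together 45.8%. The largest falls were those of Cadps2 (-0.83), a priming factor of dense-core vesicles, and Erc1 (-0.69), an ELKS scaffold. Among 19 further vesicle membrane genes 5 fell and 2 rose, which is again 36.8%. Slc17a7, which loads glutamate in cortical excitatory neurons, fell from 235 ± 11 to 135 ± 21.4 CPM (log2 fold change -0.80) and Syngr1 by 0.54, while Slc32a1, which loads GABA and glycine, rose from 35.8 ± 6.23 to 57.8 ± 10.9 CPM (log2 fold change 0.69; SD, n = 4 each). Slc18a3, the acetylcholine transporter, rose by 1.44 on the log2 scale from a mean of 0.469 CPM. Slc17a7 and Slc32a1 also belong to the excitatory and interneuron marker lists. Among 33 endocytosis and recycling genes 14 fell and 3 rose, together 51.5%. The largest falls were those of Snap91 (-0.67), a clathrin adaptor, and Sh3gl2 (-0.53), an endophilin, while its relative Sh3gl3 rose (0.50).

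The directions were also read within lanes. With the 4 libraries of lane 5 alone, all 27 genes that had passed kept their direction and 23 kept the call, and with the 4 of lanes 6 and 7 all 27 kept their direction and 10 the call, in fits of 2 against 2. Those 10 were Syt1, Syt4, Rph3a, Syn2, Synpr, Sv2b, Stx1a, Cplx1, Cplx2 and Rab3b, which also passed in every other setting tried.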

How the data were processed

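Gene expression in P3 cortex of 4 control and 4 dcKO_hGFAP-Cre mice was analysed. The authors built TruSeq v2 libraries and aligned the reads to mm10. They deposited unnormalized counts per gene, made with featureCounts. The aligner, annotation, strand setting and handling of multiply mapped reads are not given in the sources used here, so counts of overlapping genes are uncertain. Of 48709 identifiers, 48349 were matched to GENCODE M21, the annotation of the same build. Total counts ranged from 21126713 to 32110285, and at this depth 3 counts correspond to at most 0.148 CPM. No pair of replicates agreed within sampling noise. Nothing in the labels says more of their origin than that they are separate samples, so p-values measure the spread between these samples.

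Counts were normalized by TMM, filtered with the default of edgeR (minimum count 10) and tested with its quasi-likelihood F test (robust; edgeR 4.0.16, R 4.3.3) on all 16525 genes, with Benjamini-Hochberg adjustment and a threshold of 0.05. Standard errors were derived from the F statistic. Exact permutation tests used the 70 arrangements of single genes. The fit was tested on simulated data first. Levels between genes were divided by the longest annotated transcript. Promoter windows are RefSeq's.

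The members, lists and tests were chosen with earlier results of these data known. All 42 members are named. Values in every library are given for the 12 that passed with a log2 fold change of 0.5 or more in size, for the 4 of highest mean CPM, and for others that are named as chosen after seeing them. Of the pathway lists (99 of 100 symbols found, Vamp7 not analysed here), the 2 largest rises and falls are named, except 2 genes that are not reported here.

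Alternatives were DESeq2 (1.42.0), limma-voom (3.58.1), DESeq2 size factors, library totals, 2 other count filters, the replicate number or lane as a block, a GC and length offset with and without that block, an adjusted p under 0.01, all annotated exons as length, and each library left out. Fits within lanes were added after seeing the data.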

Additional observations from a re-analysis of the deposited data

Results flagged for a closer look

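In the 84 groups of 4 libraries that the 42 genes give, 6 held a value whose gap to its nearest neighbour took up more of the range than Dixon's 95% limit, where chance gives about 1 in 20, or 4.2. Mutant replicate 4 was the value in 3 of them: 106 CPM for Rims1 (others 81.6 to 83.5 CPM), 70.9 CPM for Unc13b (57.4 to 59.2 CPM) and 231 CPM for Bsn (168 to 178 CPM). They are among the 7 priming and active zone genes for which that library was the highest mutant, and the part of transcript length was not tested for single genes. Mutant replicate 3 stood out for Cplx3, at 8.77 CPM where the others were at 1.61 to 2.05 CPM. The other 2 were control libraries, replicate 2 lowest for Bsn at 203 CPM (others 221 to 223 CPM) and replicate 3 highest for Syt12 at 2.66 CPM (others 2.15 to 2.22 CPM), a gene of 45 to 80 counts per control library.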

How the results depend on the processing

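All 27 release genes that passed kept their direction in the 18 planned settings, and 19 kept the call. Syt7, Sv2a, Vamp1, Vamp2, Unc13a, Unc13b, Rims2 and Rab3a lost it in some. Scaling by library totals gave 7 higher and 14 lower release genes against 6 and 21, 15 higher and 21 lower pathway genes, and turned Syt2 to 0.10, Syt3 to 0.02, Syt6 to 0.01, Rims3 to 0.12 and Rab3c to 0.09. With at least 10 counts in every library Rims3 was at 0.01. The GC and length offset turned Syt2 to 0.18, Syt5 to -0.03, Rims3 to 0.21, Bsn to 0.06 and Rab3c to 0.04, and with the replicate block Syt2 was at 0.15 and the other 4 the same. An adjusted p under 0.01 was a setting apart from these 18. There 5 release genes were higher and 14 lower, 6 and 22 pathway genes, and 1611 and 1938 of all genes. Doc2a, among the 19 above, did not pass at this threshold (adjusted p = 0.015). The causes were not tested.

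Deviations of same-numbered libraries from their group means correlated at 0.18, -0.12, 0.18 and -0.082, and not every library correlated best with its own number. Deviations from a mean of 4 libraries are tied to each other, so these values cannot show whether replicate numbers pair the libraries. The replicate block gave 6 higher and 20 lower release genes, Rab3a losing its call, and 2932 higher and 2982 lower genes in all.

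Lane 5 alone (2 against 2) gave 5 higher pathway genes and 1951 higher genes in all, and Syt3 at 0.05, Syn3 at -0.02, Sv2c at -0.25 and Rims3 at 0.04. Lanes 6 and 7 gave 3 higher and 7 lower release genes, 1 and 1 pathway genes, 505 and 791 genes in all, and Syt2 at 0.20, Syt6 at 0.29 and Rab3c at 0.14. Fewer libraries enter these fits.

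With 1 library left out, 5 to 6 release genes were higher and 17 to 21 lower, 6 to 10 and 24 to 37 pathway genes, and 2199 to 3308 and 2375 to 3273 of all genes. Genes that changed sign, none past the threshold, were Syt2 (-0.13 to 0.14), Syt6 (-0.23 to 0.03), Rims3 (-0.06 to 0.03), Rab3c (-0.11 to 0.06), Syn3 (-0.12 to 0.14) and Sv2c (-0.04 to 0.36). Genes at a few CPM, such as Syt2, Syt10 and Syt12, are limited by depth. With all annotated exons as length, the change in share was -14.5 percentage points for Syn1 and 14.0 for Syn2.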

Other observations

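Marker lists of non-neuronal cells also differed between the groups. The 6 markers of oligodendrocyte precursors were all lower (422 to 456 CPM summed in control, 234 to 312 CPM in mutant libraries), 4 of 6 endothelial markers were lower (239 to 289 against 126 to 224 CPM) and 6 of 8 microglial markers were higher (88.2 to 118 against 168 to 210 CPM). Of 10 astrocyte and radial glia markers 1 rose and 1 fell, with 1860 to 2010 CPM in control and 1340 to 2830 CPM in mutant libraries, the highest in replicate 3. Choroid plexus markers summed to 4.15 to 13.6 CPM in control and to 616, 1180, 21 and 4.59 CPM in mutant replicates 1 to 4. Markers of thalamus and midbrain (6 of 8 tested higher, Gata3 and Chat too low to test) went from 56.8 to 69.4 CPM up to 88.6 to 139 CPM, hippocampal markers (2 of 7 higher) from 279 to 331 CPM up to 346 to 390 CPM, and none of 5 erythrocyte markers passed. The largest part of the thalamus and midbrain sum, Slc17a6 (means 51.9 and 61.1 CPM), did not pass, nor did Slc6a4. Shox2 was at 0 to 0.296 CPM in control and 12.7 to 17.5 CPM in mutant libraries. Otx2 was at 0.0694 to 0.276 and 3.07 to 13.6 CPM, and Gbx2 at 0 to 0.0493 and 1.09 to 1.95 CPM. Shox2, Otx2 and Gbx2 were chosen after their values were seen.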
